A study of Mus musculus with 16 samples.

Results

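The genes described here are 10 enzymes that make the sugar nucleotides of hyaluronan and the polymer itself: Gfpt1, Gfpt2, Pgm3, Uap1, Pgm1, Pgm2, Ugp2, Ugdh, Has1 and Has2. They were chosen by symbol from the 52997 gene symbols of the count table, with the values of Ugdh and Has1 at 4 h already known. All 10 were among the 13949 genes with enough counts to be tested. For these genes the 4 h comparison, and every comparison that contains CGRP 4 h libraries, is therefore a description with no test. The comparison of the PBS groups shares the PBS 4 h libraries, so its p-values for these genes are not independent of the choice.

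Mesenchymal stromal cells (mSC) were sorted from hindlimb muscle, and their RNA was sequenced. The C57BL/6 mice, 8 weeks old, had been injected intraperitoneally with CGRP, a neuropeptide of sensory nerves, or with PBS, the vehicle, 4 h or 8 h before. The 4 groups are CGRP 4 h, PBS 4 h, CGRP 8 h and PBS 8 h, with 4 replicates each that the submitters call biological. Each library came from 1000 cells sorted in 2 passes, amplified by PCR without molecular identifiers. The sources used here give neither the CGRP dose nor the sorting gate, nor whether 1 replicate stands for 1 mouse or several. If replicates share a mouse or a pool, the p-values measure only the spread between these libraries.

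The 16 libraries held 6373713 to 10011920 counts and 21138 to 25579 genes with a count. All 10 stromal markers examined, Pdgfra, Col1a1 and Dcn among them, were present in every group, with a summed level of 140281 to 187597 CPM (counts scaled to one fixed library size). That sum was 147607 to 154258 CPM in CGRP 4 h against 164026 to 187597 CPM in PBS 4 h libraries, and 140281 to 159732 CPM in CGRP 8 h against 163166 to 175760 CPM in PBS 8 h libraries, without overlap. Gsn, which encodes the actin-binding protein gelsolin, made up most of it, with 96031 CPM in CGRP 4 h, 109401 CPM in PBS 4 h, 101296 CPM in CGRP 8 h and 117355 CPM in PBS 8 h libraries on average. Single stromal markers went both ways: 2 rose and 3 fell at 4 h, and 2 rose and 2 fell at 8 h. Pdpn averaged 953 CPM in CGRP 4 h against 431 CPM in PBS 4 h libraries. Their part in the results was not tested. The 8 macrophage and myeloid markers summed to 4.69 to 9.36 CPM, the 8 lymphocyte markers to 0.108 to 2.13 CPM and the 7 endothelial markers to 78.8 to 144 CPM. Tek carried the endothelial sum, at 90.6 to 119 CPM in the group means, and the defining markers Pecam1 and Cdh5 were at no more than 1.16 and 0.258 CPM. The satellite cell markers summed to 61.7 to 135 CPM, most of it Vcam1 (65.9 to 103 CPM in the group means), with Myf5 at 0 in every library and Pax7 at no more than 0.133 CPM. Myofibre markers summed to 84.2 to 229 CPM, with Acta1 at 61.1 to 127 CPM in the group means. Their sum was 84.2 to 140 CPM in CGRP 4 h against 113 to 169 CPM in PBS 4 h libraries. At 8 h it was 97.7 to 144 CPM after CGRP against 142 to 229 CPM after PBS. Of the 6 myofibre markers tested, 1 fell at 8 h, beside 3.67% of all genes. The part of myofibre RNA in the results was not tested. Schwann cell markers summed to 6.36 to 12.4 CPM and erythroid markers to 0.970 to 47.6 CPM. In bulk RNA, fewer cells of a type and less RNA per cell cannot be told apart. Levels are in CPM after TMM scaling, errors of levels are SD with n = 4, and errors of log2 fold changes are SE from the edgeR model.

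Hyaluronan is a long unsulfated polymer of the extracellular matrix, built from alternating glucuronic acid and N-acetylglucosamine. One arm of the pathway, the hexosamine arm, turns fructose phosphate into UDP-N-acetylglucosamine. The other turns glucose phosphate into UDP-glucose and then UDP-glucuronic acid. Synthases in the plasma membrane join both sugars and extrude the chain, and fibroblast-like stromal cells are a main source of it in connective tissue.

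In the mm10 (GRCm38) build with the GENCODE M21 annotation, 8 of the 10 genes could be placed. Uap1 lies on chromosome 1 at 170141938 to 170174957 (reverse strand) and Ugdh on chromosome 5 at 65413221 to 65435949 (reverse). Gfpt1 lies on chromosome 6 at 87042846 to 87092197 (forward) and Pgm3 on chromosome 9 at 86554377 to 86571842 (reverse). Ugp2 and Gfpt2 are both on chromosome 11, at 21321138 to 21371201 (reverse) and at 49794178 to 49838613 (forward). Has2 lies on chromosome 15 at 56665627 to 56694539 (reverse) and Has1 on chromosome 17 at 17843323 to 17855205 (reverse). RefSeq lists Pgm1 and Pgm2 each as a synonym of the other, and the sources used here do not give the annotation release behind the counts. Which of those 2 phosphoglucomutase genes each row counts cannot be told, so no position, length or promoter is given for either.

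The promoters of the 4 genes with the largest log2 differences between CGRP 4 h and PBS 4 h are shown, since these genes were high in the same group. The sequences are RefSeq's for GRCm38.p6, from 250 bases before to 50 bases after the start site, 5′ to 3′ on the gene's own strand. Capitals mark every match, on either strand, to the cyclic-AMP response element TGACGTCA or its core TGACG, or to the AP-1 motif TGANTCA. The windows are chr1:170174915-170175214 for Uap1, chr5:65435793-65436092 for Ugdh and chr17:17855139-17855438 for Has1 (all on the reverse strand), and chr11:49793905-49794204 for Gfpt2 (forward strand).
Uap1: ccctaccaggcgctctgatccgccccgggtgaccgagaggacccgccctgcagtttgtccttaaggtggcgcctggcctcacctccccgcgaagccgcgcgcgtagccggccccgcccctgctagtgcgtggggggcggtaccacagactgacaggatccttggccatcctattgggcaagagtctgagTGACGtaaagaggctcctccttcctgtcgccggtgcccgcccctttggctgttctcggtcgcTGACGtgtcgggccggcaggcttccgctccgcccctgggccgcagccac
Ugdh: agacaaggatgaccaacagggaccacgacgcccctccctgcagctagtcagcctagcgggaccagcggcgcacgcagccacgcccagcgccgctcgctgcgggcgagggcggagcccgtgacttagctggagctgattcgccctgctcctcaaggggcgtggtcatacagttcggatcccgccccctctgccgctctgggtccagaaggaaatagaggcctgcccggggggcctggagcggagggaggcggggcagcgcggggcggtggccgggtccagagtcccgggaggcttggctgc
Gfpt2: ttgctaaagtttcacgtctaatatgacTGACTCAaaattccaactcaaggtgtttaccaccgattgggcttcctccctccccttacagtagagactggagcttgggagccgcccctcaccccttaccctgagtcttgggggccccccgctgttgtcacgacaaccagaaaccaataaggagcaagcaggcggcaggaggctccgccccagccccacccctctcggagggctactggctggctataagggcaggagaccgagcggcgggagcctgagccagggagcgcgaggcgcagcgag
Has1: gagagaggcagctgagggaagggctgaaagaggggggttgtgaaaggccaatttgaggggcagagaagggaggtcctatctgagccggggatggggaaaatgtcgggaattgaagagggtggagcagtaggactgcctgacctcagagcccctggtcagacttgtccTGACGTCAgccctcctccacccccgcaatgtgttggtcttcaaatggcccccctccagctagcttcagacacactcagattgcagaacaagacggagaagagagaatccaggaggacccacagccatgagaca

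The Has1 window held a full TGACGTCA, which overlaps a TGACG on each strand, with its first base 83 bases before the start site (position -83). Of all 32851 RefSeq promoter windows of this length, 1.79% hold that element. The Uap1 window held TGACG at -61 and at 2, a pentamer found in 20.8% of windows, and the second match extends to TGACGTG, found in 2.01%. Gfpt2 held TGANTCA at -223, a motif in 7.81% of windows. Ugdh held none of these. Among the 7 placed genes with a window, GGGCGG (in 35.7% of all windows) and CCAAT (37.4%) were each in 6. The E-box CACGTG (7.15% of all windows), the STAT motif TTCCNGGAA (1.15%) and the ATF4 composite motif TGATGNAA (3.97%) were in 0 of the 7. A match is a description of the letters, not of a bound site.

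At 4 h 7 of the 10 enzyme genes were higher after CGRP by the threshold applied to all genes, 1 was lower and 2 did not pass it. Ugdh was at 5.01 times, Uap1 at 4.14 times and Gfpt2 at 2.68 times the PBS 4 h level, and the synthase Has1 at 5.91 times with a wide spread. Ugp2, Pgm3 and the row named Pgm1 were 1.49 to 1.64 times the PBS 4 h level, Pgm2 was lower, at 0.681 times, and Gfpt1 was near its PBS 4 h level. That threshold, an adjusted p under 0.05, was passed by 7.84% of all 13949 genes as higher, 8.37% as lower and 16.2% in either direction. The groups did not overlap for 5 genes that were higher (Ugdh, Uap1, Ugp2, Pgm3 and Gfpt2) and for Pgm2, beside 8.95% of all genes above and 9.90% below. The median log2 fold change of the 10 was 0.84, beside -0.00 over all genes tested. The genes were chosen with this contrast known, so nothing is read from these counts.

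**Figure D1:**
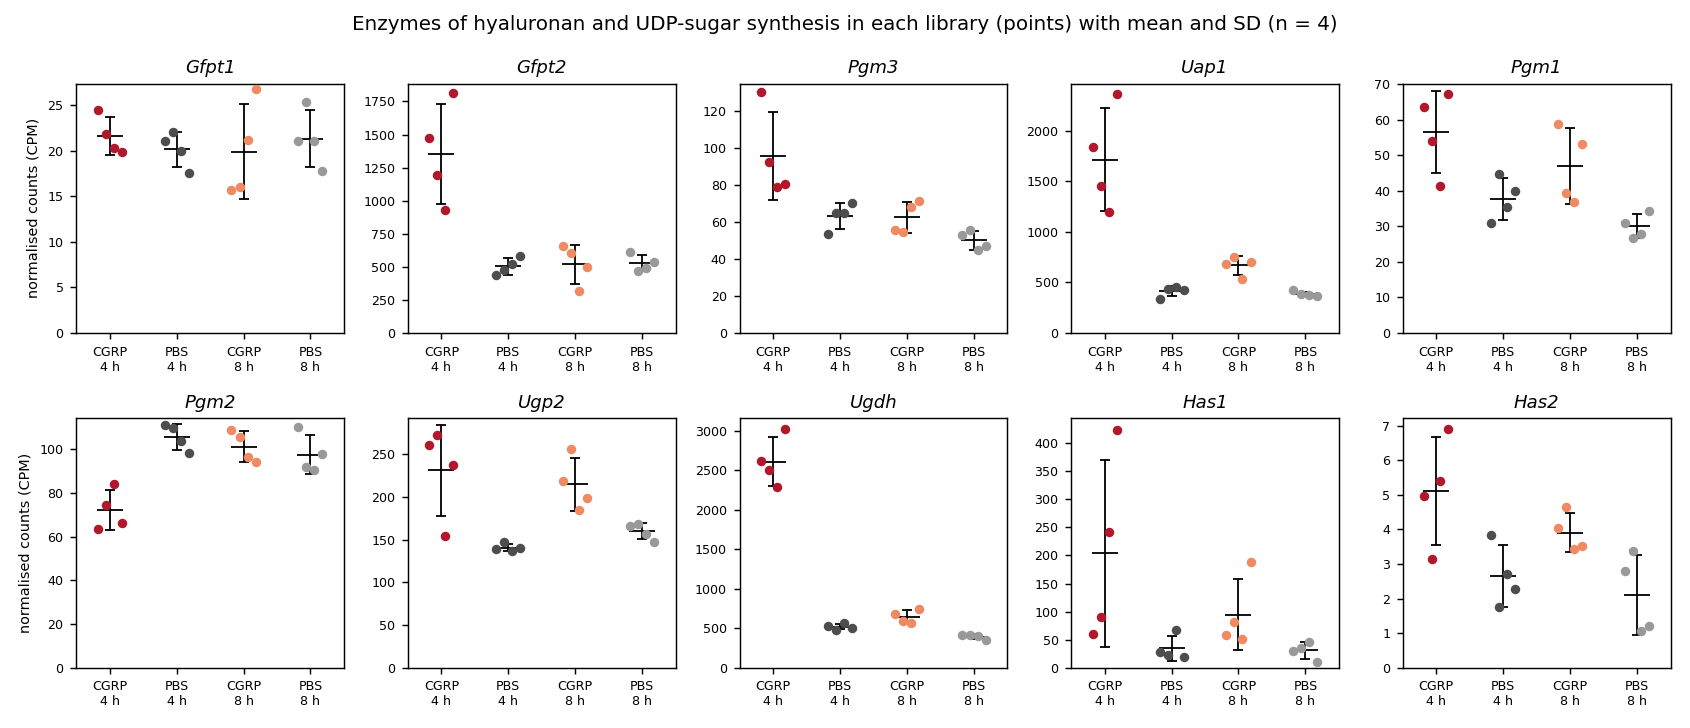
Level of each of the 10 enzyme genes in CPM (y axis, from 0, its own scale per panel) in the 4 libraries of CGRP 4 h, PBS 4 h, CGRP 8 h and PBS 8 h (points), with mean and SD (bars). Ugdh, Uap1 and Gfpt2 stand high in all 4 CGRP 4 h libraries, Pgm2 stands low there, and the 4 Has1 values of CGRP 4 h run from 59.8 to 423 CPM.

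The hexosamine arm starts with glutamine-fructose-phosphate transaminase, its rate-limiting enzyme, which has 2 genes. Gfpt2 had 1474, 1194, 931 and 1810 CPM in CGRP 4 h replicates 1 to 4, against 436, 479, 518 and 581 CPM in PBS 4 h. Every CGRP 4 h library was above every PBS 4 h library (log2 fold change 1.42 ± 0.22). At 8 h Gfpt2 had 656, 604, 321 and 497 CPM after CGRP, against 612, 471, 491 and 539 CPM after PBS. The 8 h groups overlapped throughout, with a log2 fold change of -0.02 ± 0.22 (95% interval -0.50 to 0.45, edgeR adjusted p = 0.969). CGRP 8 h replicate 3 was the lowest of all 16 libraries, and without it the 8 h log2 fold change was 0.17. The sister gene Gfpt1 stayed between 15.7 and 26.8 CPM in all 16 libraries. Its log2 fold change was 0.10 ± 0.16 at 4 h and -0.11 ± 0.17 at 8 h (95% interval -0.47 to 0.25, adjusted p = 0.768), with overlapping groups at both times.

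Pgm3 moves the phosphate of N-acetylglucosamine phosphate. It had 131, 92.3, 79.2 and 80.7 CPM in CGRP 4 h libraries, against 53.4, 64.8, 64.7 and 70.2 CPM in PBS 4 h libraries. The groups did not overlap (log2 fold change 0.60 ± 0.14). At 8 h it had 55.9, 54.8, 68.3 and 71.4 CPM after CGRP, against 52.8, 55.9, 45.0 and 47.0 CPM after PBS. These groups overlapped, and the 8 h log2 fold change of 0.32 ± 0.14 did not pass the test (95% interval 0.01 to 0.62, adjusted p = 0.181). Pgm3 shares 1270 exon bases with Dopey1 on the opposite strand, which had 4860 counts in the 16 libraries. The library kit does not mark strand, so reads of the shared bases cannot be told apart.

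Uap1 closes this arm by joining N-acetylglucosamine phosphate to UTP. It had 1844, 1458, 1193 and 2366 CPM in CGRP 4 h libraries, against 339, 439, 454 and 426 CPM in PBS 4 h libraries. The lowest CGRP 4 h library was above the highest PBS 4 h library by a wide margin (log2 fold change 2.05 ± 0.17). At 8 h Uap1 had 686, 747, 538 and 704 CPM after CGRP, against 421, 383, 372 and 370 CPM after PBS. All 4 CGRP 8 h libraries were again above all 4 PBS 8 h libraries, and Uap1 rose at 8 h (log2 fold change 0.79 ± 0.17, 95% interval 0.43 to 1.15, edgeR adjusted p = 0.00808).

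The glucuronic acid arm starts with phosphoglucomutases, which move the phosphate of glucose phosphate. The row named Pgm1 had 63.7, 53.9, 41.3 and 67.2 CPM in CGRP 4 h libraries, against 30.9, 44.7, 35.4 and 40.1 CPM in PBS 4 h libraries. CGRP 4 h replicate 3 lay within the PBS 4 h range (log2 fold change 0.58 ± 0.16). The row passed the all-gene threshold at 4 h, but not without CGRP 4 h replicate 1, CGRP 4 h replicate 4 or PBS 4 h replicate 1 (0.53, 0.50 and 0.51). At 8 h it had 58.7, 39.5, 36.8 and 53.2 CPM after CGRP, against 31.0, 26.8, 28.0 and 34.3 CPM after PBS. The 8 h groups did not overlap and the row rose (0.64 ± 0.17, adjusted p = 0.0175). That call was lost without CGRP 8 h replicate 1 or 4 (adjusted p = 0.0859 and 0.0605) and without PBS 8 h replicate 2 or 3 (0.0508 and 0.0557).

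The row named Pgm2 ran the other way at 4 h. It had 63.4, 74.4, 83.9 and 66.5 CPM in CGRP 4 h libraries, against 111, 110, 104 and 98.3 CPM in PBS 4 h libraries. All 4 CGRP 4 h libraries were below all 4 PBS 4 h libraries (log2 fold change -0.55 ± 0.10). At 8 h it had 109, 105, 96.5 and 94.4 CPM after CGRP, against 110, 92.1, 90.5 and 97.7 CPM after PBS. These overlapped (0.05 ± 0.10, 95% interval -0.15 to 0.26, adjusted p = 0.805).

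Ugp2 makes UDP-glucose, which also feeds glycogen. It had 261, 273, 155 and 237 CPM in CGRP 4 h libraries, against 140, 147, 136 and 140 CPM in PBS 4 h libraries. The groups did not overlap, although CGRP 4 h replicate 3 lay close to the PBS 4 h libraries (log2 fold change 0.72 ± 0.13). At 8 h Ugp2 had 219, 257, 185 and 199 CPM after CGRP, against 166, 168, 157 and 148 CPM after PBS. All CGRP 8 h libraries were above all PBS 8 h libraries, and Ugp2 rose by a small margin (0.43 ± 0.13, 95% interval 0.14 to 0.71, adjusted p = 0.0439). This call was held in 11 of 23 alternative analyses. It was lost without any 1 PBS 8 h library, without CGRP 8 h replicate 1, 2 or 4, and without PBS 4 h replicate 1, 2 or 3, which enter only through the shared spread, as well as with upper-quartile scaling. The log2 fold change stayed between 0.35 and 0.51 and the adjusted p reached 0.126.

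Ugdh oxidises UDP-glucose to UDP-glucuronic acid, the step that commits this arm to hyaluronan and sulfated chains. It had 2615, 2503, 2282 and 3021 CPM in CGRP 4 h libraries, against 534, 481, 562 and 503 CPM in PBS 4 h libraries. The CGRP 4 h libraries stood far above the rest, with the narrowest relative error of the 10 log2 fold changes at that time (2.33 ± 0.10). At 8 h Ugdh had 680, 587, 561 and 745 CPM after CGRP, against 417, 412, 399 and 351 CPM after PBS. The groups did not overlap and Ugdh rose at 8 h (0.70 ± 0.10, 95% interval 0.49 to 0.91, edgeR adjusted p = 1.21e-04). Ugdh and Uap1 were called at 8 h in all 23 alternative analyses, with adjusted p up to 0.00969 for Ugdh and 0.0353 for Uap1.

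Has1 is a hyaluronan synthase. It had 59.8, 90.0, 242 and 423 CPM in CGRP 4 h libraries, against 28.9, 23.6, 67.0 and 18.9 CPM in PBS 4 h libraries. CGRP 4 h replicates 3 and 4 were far above the rest, and CGRP 4 h replicate 1 lay below PBS 4 h replicate 3 (log2 fold change 2.56 ± 0.71). The gene passed the all-gene threshold at 4 h, but not without CGRP 4 h replicate 4 (1.93) or without PBS 4 h replicate 1, 2 or 4 (2.51, 2.42 and 2.36), nor with no filter on low counts, in a fit of the 4 h libraries alone or without the 4 libraries with over 23000 genes detected. At 8 h it had 58.1, 81.4, 51.8 and 188 CPM after CGRP, against 30.4, 35.7, 46.5 and 10.9 CPM after PBS. All 4 CGRP 8 h libraries were above all 4 PBS 8 h libraries, yet the spread within groups was wide and the difference did not pass (1.61 ± 0.70, 95% interval 0.08 to 3.15, adjusted p = 0.196).

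Has2 is the other synthase that could be tested, and it was sparse. It had 4.98, 3.14, 5.40 and 6.92 CPM in CGRP 4 h libraries, against 3.85, 1.77, 2.71 and 2.29 CPM in PBS 4 h libraries. CGRP 4 h replicate 2 lay within the PBS 4 h range (log2 fold change 0.95 ± 0.36). At 8 h it had 4.04, 4.64, 3.44 and 3.52 CPM after CGRP, against 2.80, 3.37, 1.06 and 1.21 CPM after PBS. The groups did not overlap, but the difference did not pass (0.88 ± 0.37, 95% interval 0.07 to 1.70, adjusted p = 0.152). These values rest on 139 counts over the CGRP 8 h libraries and 61 over the PBS 8 h libraries. Has2 shares 182 exon bases with its antisense RNA Has2os, whose reads cannot be told apart there. Has2os averaged 22.5 ± 2.34 CPM in CGRP 4 h, 23.4 ± 4.09 CPM in PBS 4 h, 22.6 ± 4.39 CPM in CGRP 8 h and 21.8 ± 5.22 CPM in PBS 8 h libraries. The remaining synthase, Has3, averaged 0.640 CPM in CGRP 4 h, 0.805 CPM in PBS 4 h, 0.585 CPM in CGRP 8 h and 0.793 CPM in PBS 8 h libraries and was too sparse to be tested.

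**Figure D2:**
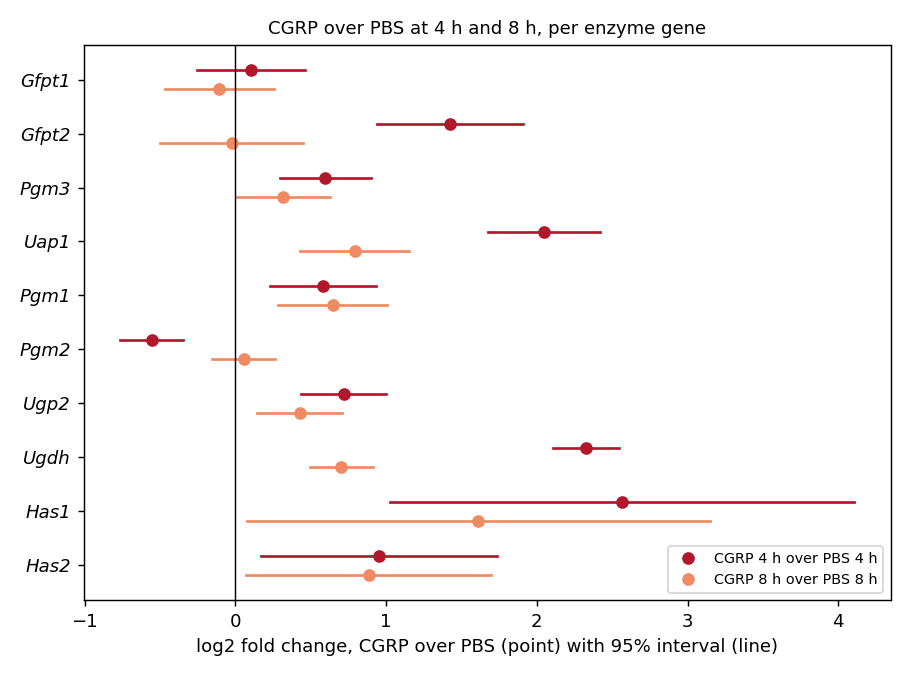
Log2 fold change of CGRP over PBS (x axis) at 4 h (dark points) and 8 h (light points) for each of the 10 genes, with 95% intervals from the edgeR model (lines). The 4 h points of Ugdh, Uap1 and Gfpt2 lie to the right of their 8 h points, those of the row named Pgm1 and of Has2 nearly coincide, and the intervals of Has1 are the widest.

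At 8 h, which shares no library with the 4 h comparison, 4 of the 10 genes rose, beside 5.00% of all genes called higher, 3.67% called lower and 8.67% called in either direction. The 4 were Ugdh, Uap1, the row named Pgm1 and Ugp2. In 6 of the 10 all CGRP 8 h libraries were above all PBS 8 h libraries, Has1 and Has2 being the other two, beside 8.08% of all genes (6.75% were below throughout, and 14.8% did not overlap in either direction). The median log2 fold change of the 10 was 0.54, beside -0.02 over all genes tested. Without CGRP 8 h replicate 1 or 4, or PBS 8 h replicate 2 or 3, 2 of the 10 were called, Ugdh and Uap1. The same 2 were called without the 4 libraries that had over 23000 genes with a count (PBS 4 h replicate 4, PBS 8 h replicates 1 and 4 and CGRP 4 h replicate 3), an alternative chosen after seeing the data.

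The 8 h effect of CGRP minus its 4 h effect was -1.62 ± 0.14 for Ugdh, -1.45 ± 0.31 for Gfpt2 and -1.26 ± 0.23 for Uap1 on the log2 scale. For Pgm2 it was 0.61 ± 0.14. These 4 passed the all-gene threshold for the difference, which 1.12% of genes passed (0.695% higher and 0.423% lower), but the 4 h comparison is part of it, so it is given as a description. For the row named Pgm1 (0.07 ± 0.23), Has2 (-0.07 ± 0.53), Gfpt1 (-0.21 ± 0.23), Pgm3 (-0.28 ± 0.20), Ugp2 (-0.29 ± 0.18) and Has1 (-0.95 ± 0.97) the values at 8 h and 4 h were within 2 SE of each other. Among CGRP libraries alone, the 8 h level was lower than the 4 h level by a log2 difference of -2.02 ± 0.10 for Ugdh, -1.38 ± 0.22 for Gfpt2, -1.36 ± 0.17 for Uap1 and -0.62 ± 0.14 for Pgm3, and higher by 0.49 ± 0.10 for Pgm2. The CGRP groups did not overlap for these 5 genes, beside 5.74% of all genes lower, 6.65% higher and 12.4% in either direction. By the same threshold 4 of the 10 were lower and 1 was higher in CGRP 8 h, beside 3.05% and 4.20% of all genes, and 7.26% in either direction.

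The PBS groups differ in collection time without CGRP, and anything else that differed between the 2 collections cannot be told apart from it. Between them 0 of the 10 genes passed the edgeR test, beside 0.516% of all genes (0.265% higher and 0.251% lower). Of the 10, 2 had an unadjusted p under 0.05, and 1 was called by DESeq2. The share of all genes at that unadjusted threshold is not given here, and the DESeq2 count over all genes is given further below. Nothing is read from these counts of members. Ugdh was lower in all 4 PBS 8 h libraries than in any PBS 4 h library, at 395 ± 30.1 CPM against 520 ± 35.3 CPM (log2 fold change -0.40 ± 0.10, adjusted p = 0.0629). It passed with DESeq2 (adjusted p = 0.0170), with no filter on low counts (6.72e-04), in a fit of the PBS libraries alone (0.0241) and without PBS 4 h replicate 4 (0.0389). Ugp2 was higher in every PBS 8 h library, at 160 ± 9.44 CPM against 141 ± 4.48 CPM in PBS 4 h, and did not pass (0.18 ± 0.13, adjusted p = 0.595). The PBS groups did not overlap for Ugdh (4.22% of all genes were lower throughout) and Ugp2 (3.30% were higher throughout), beside 7.52% in either direction. These PBS 4 h libraries also enter the 4 h comparison with CGRP, which was known for Ugdh when the genes were chosen. The PBS comparison is thus not independent of that choice, and its values for the 10 genes are given as a description.

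The order of the 4 groups differed between the genes. Ugdh and Uap1 ran, from high to low mean, CGRP 4 h, CGRP 8 h, PBS 4 h and PBS 8 h. For Ugdh the CGRP 8 h and PBS 4 h libraries overlapped by the smallest CGRP 8 h value (561 CPM) and the largest PBS 4 h value (562 CPM). For Uap1 the PBS groups overlapped and the other neighbours did not. Has1, Has2 and the row named Pgm1 had the same order, with every pair of neighbours overlapping. For Gfpt2 the CGRP 4 h libraries stood above all others, and the other 3 groups, at 504 to 528 CPM on average, overlapped.

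Per kilobase of exon, levels can be set against each other between genes only roughly. The length is that of all GENCODE M21 exons of a gene joined, and the annotation behind the counts is not given. In CGRP 4 h libraries Uap1 had the highest mean, 428 ± 127 CPM per kb, followed by Ugdh (386 ± 45.8) and Gfpt2 (242 ± 67.5). The libraries of Uap1 (298 to 590 CPM per kb) and Ugdh (338 to 447) overlapped. Before division by length Ugdh was above Uap1 in this group, at 2605 against 1715 CPM on average. In PBS 4 h libraries the order was Uap1 (103 ± 12.8), Gfpt2 (90.1 ± 11.1) and Ugdh (77.0 ± 5.23), each within or near the spread of its neighbour. Ugp2 came next, at 75.4 ± 17.4 CPM per kb in CGRP 4 h and 45.9 ± 1.46 in PBS 4 h. The level of Has1 was 45.1 ± 36.9 CPM per kb in CGRP 4 h and 7.66 ± 4.86 in PBS 4 h. Pgm3 was at 21.3 ± 5.35 CPM per kb in CGRP 4 h and 14.1 ± 1.57 in PBS 4 h. Gfpt1 and Has2 were the lowest, at 2.15 ± 0.207 and 1.21 ± 0.366 CPM per kb in CGRP 4 h, and 2.00 ± 0.190 and 0.626 ± 0.209 in PBS 4 h. In every group the mean level of Gfpt2 was above that of Gfpt1, and that of Has1 above that of Has2. At 8 h the mean of Uap1 stayed first, at 167 ± 22.7 CPM per kb after CGRP and 96.3 ± 5.99 after PBS, where Gfpt2 was close (94.5 ± 11.2). Has2 stayed last, at 0.922 ± 0.131 after CGRP and 0.498 ± 0.271 after PBS.

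A marker of synovial lining, Prg4, rose at both times. Of the 5 tendon and synovial lining markers (Scx, Tnmd, Fmod, Prg4 and Clic5), 1 rose at each time, that gene, which encodes the joint lubricant lubricin. The summed level of the 5 was 1383 to 3167 CPM in CGRP 4 h against 870 to 1319 CPM in PBS 4 h libraries, and 2338 to 3834 CPM in CGRP 8 h against 438 to 1061 CPM in PBS 8 h libraries. Prg4 alone made up most of it. Its mean was 2229 CPM in CGRP 4 h, 701 CPM in PBS 4 h, 2739 CPM in CGRP 8 h and 520 CPM in PBS 8 h. Prg4 had a log2 fold change of 1.67 ± 0.28 at 4 h (edgeR adjusted p = 0.00147) and 2.40 ± 0.29 at 8 h (adjusted p = 4.65e-04). At 4 h Fmod (-2.54 ± 0.83) and Tnmd (-1.38 ± 0.46) had negative values that did not pass, and Scx was too sparse to be tested. Clic5 did not pass at 4 h (0.64 ± 0.46, edgeR adjusted p = 0.391) or at 8 h (0.62 ± 0.49, adjusted p = 0.496). CGRP 4 h replicate 4 had both the highest Has1 (423 CPM) and the highest Prg4 (3072 CPM) of its group. The same library was also the highest of that group for Ugdh, Uap1, Gfpt2, Has2 and the row named Pgm1. For Gfpt1, Pgm3, Pgm2 and Ugp2 another CGRP 4 h library was the highest. At 8 h the highest Has1 (188 CPM, replicate 4) and the highest Prg4 (3773 CPM, replicate 1) fell in different libraries. Whether synovial lining cells had a part in the Prg4 or Has1 results was not tested.

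**Figure D3:**
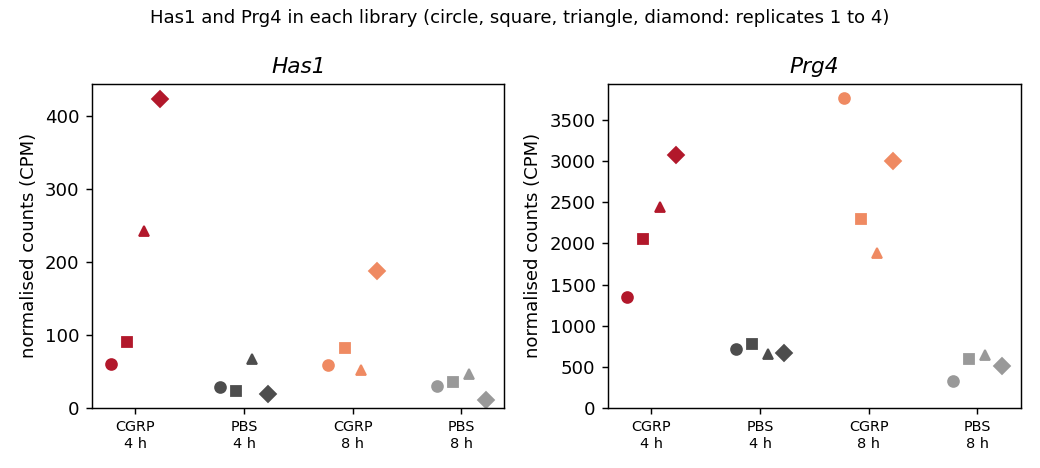
Level of Has1 (left) and Prg4 (right) in CPM (y axes, from 0) in each library of CGRP 4 h, PBS 4 h, CGRP 8 h and PBS 8 h, with 1 marker shape per replicate number. Every CGRP library has more Prg4 than every PBS library, at least 1345 CPM against at most 774 CPM, whereas Has1 overlaps at 4 h.

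Of the pericyte and smooth muscle markers, Cspg4 was uneven at 4 h, at 34.9 ± 8.44 CPM in CGRP 4 h against 79.8 ± 19.1 CPM in PBS 4 h libraries. It carried most of the sum of the 7 genes, 30.0 to 63.8 CPM in CGRP 4 h against 67.9 to 123 CPM in PBS 4 h libraries, and 2 of the 5 tested fell. Rgs5 and Mcam were under 1 CPM in every group mean, and Kcnj8 was at 5.83 CPM in CGRP 4 h against 4.26 CPM in PBS 4 h libraries. At 8 h they summed to 95.1 to 130 CPM after CGRP against 108 to 163 CPM after PBS. Their part in the results was not tested.

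To set the 10 genes in their pathway, 80 further genes in 8 lists by role were examined, of which 71 could be tested. At 4 h 9 of the 71 were called higher and 9 lower, beside 7.84% and 8.37% of all genes, and 16.2% in either direction. At 8 h 8 rose and 4 fell, beside 5.00% and 3.67% of all genes, and 8.67% in either direction. The same shares of all genes stand beside the counts of each list below. Without the 4 libraries with over 23000 genes detected, 4 of the 12 calls at 8 h held, those of Csgalnact1, Vcan and Itih5 among them. The lists were drawn up by role with some of these results known. Of the 9 that were higher at 4 h, Hk2, Slc2a1, Tnfaip6 and Vcan were known to be so, and their 4 h values are descriptions with no test. The median log2 fold change of the 71 was -0.04 at 4 h and 0.02 at 8 h, beside 0.84 and 0.54 for the 10 genes.

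Among the 5 glucose entry genes, the known pair Hk2 and Slc2a1 were higher at 4 h. Hk2, a hexokinase, had 39.4 ± 18.5 CPM in CGRP 4 h against 10.6 ± 4.27 CPM in PBS 4 h libraries (log2 fold change 1.89 ± 0.35). Slc2a1, the glucose transporter GLUT1, had 18.8 ± 9.76 against 6.11 ± 2.12 CPM in the same groups (1.60 ± 0.38). At 8 h 1 of the 5 rose, Hk2 (1.71 ± 0.36, edgeR adjusted p = 0.00988). Slc2a1 at 8 h, at 9.14 ± 3.66 CPM after CGRP and 4.74 ± 2.32 CPM after PBS, did not pass.

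Another list of 10 tested genes held those that salvage hexosamines, take them apart or use them, and Gnpnat1, the acetyltransferase between the transaminases and Pgm3. Of the 10, 4 fell at 4 h, and the list's median log2 fold change was -0.36, beside -0.00 over all genes. Gnpnat1 had the highest value of the list at 4 h and did not pass (3.69 ± 1.35 CPM in CGRP 4 h against 1.79 ± 0.635 CPM in PBS 4 h, 1.02 ± 0.41, edgeR adjusted p = 0.0916). Uap1l1, a gene named as Uap1-like, had 56.8 ± 8.81 CPM in CGRP 4 h against 104 ± 14.3 CPM in PBS 4 h (-0.88 ± 0.12, edgeR adjusted p = 2.10e-05). Nagk, the kinase that returns free N-acetylglucosamine to the pathway, had 49.1 ± 3.41 against 77.0 ± 3.19 CPM (-0.65 ± 0.10, adjusted p = 1.41e-04). Gnpda2, a deaminase that runs opposite to the transaminases, had a log2 fold change of -0.56 ± 0.14 (adjusted p = 0.0102; 0.0553 without CGRP 4 h replicate 1). The fourth, Amdhd2, a deacetylase of N-acetylglucosamine phosphate, was at -0.49 ± 0.16 (adjusted p = 0.0423) and was called in 14 of 23 alternative analyses. At 8 h 1 of 10 fell, Ogt, which places N-acetylglucosamine on proteins (121 ± 2.79 CPM after CGRP against 156 ± 7.05 CPM after PBS, -0.37 ± 0.08, adjusted p = 0.00428).

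Uap1 and Uap1l1 thus ran in opposite directions at 4 h. Uap1l1 had 112 ± 15.0 CPM in CGRP 8 h against 111 ± 2.66 CPM in PBS 8 h libraries. Its 8 h effect exceeded its 4 h effect by 0.90 ± 0.16 on the log2 scale, a difference that passed the test (adjusted p = 0.00564; 0.0645 without the 4 libraries with over 23000 genes detected). Of the 71 genes 2 passed that test, both higher, beside 1.12% of all genes. The other was Galk1, galactokinase (0.67 ± 0.16, adjusted p = 0.0398), named after its value was seen and called in 7 of 22 alternative analyses.

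Among 7 genes of UDP-hexose and UDP-xylose metabolism, 1 fell at 4 h and 1 rose at 8 h. Galm, which interconverts the forms of galactose, was lower at 4 h (6.86 ± 2.38 CPM after CGRP against 12.2 ± 2.19 CPM after PBS, -0.84 ± 0.27, edgeR adjusted p = 0.0340). The call held in 16 of 23 alternatives and was lost without CGRP 4 h replicate 1, 2 or 3 or PBS 4 h replicate 1, 3 or 4 and without the 4 libraries with over 23000 genes detected, with log2 fold changes of -1.06 to -0.64 over all alternatives. Uxs1, which turns UDP-glucuronic acid into UDP-xylose and so draws on the product of Ugdh, rose at 8 h (34.4 ± 5.55 CPM after CGRP against 23.6 ± 1.24 CPM after PBS, 0.54 ± 0.14, adjusted p = 0.0160). That call was lost without CGRP 8 h replicate 1 or 4 (highest adjusted p over the alternatives 0.145).

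Of 6 glycogen genes, 1 rose at 8 h, the branching enzyme Gbe1 (43.5 ± 3.00 CPM after CGRP against 27.4 ± 3.53 CPM after PBS, 0.67 ± 0.16, adjusted p = 0.0138). Its call was lost without CGRP 8 h replicate 1 or PBS 8 h replicate 4 (highest adjusted p over the alternatives 0.157). The 5 transporters of UDP-sugars had log2 fold changes from -0.24 to 0.28 at 4 h and from 0.00 to 0.24 at 8 h.

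Of 7 genes tested in the list of Has3 and the enzymes that take hyaluronan apart, 3 fell at 4 h and 2 at 8 h. Hexa, a lysosomal enzyme subunit, fell at 4 h (-0.40 ± 0.08, edgeR adjusted p = 0.00183) and at 8 h (-0.30 ± 0.08, adjusted p = 0.0244), the 8 h call holding in 16 of 23 alternatives and being lost without CGRP 8 h replicate 1, 2 or 4 or PBS 8 h replicate 2 or 4 and with no filter on low counts (highest adjusted p 0.108). Gusb, the lysosomal glucuronidase, fell at 4 h (-0.37 ± 0.10, adjusted p = 0.0132), a call lost without CGRP 4 h replicate 1 or PBS 4 h replicate 2 (highest adjusted p 0.0704). The hyaluronidases Hyal1 and Hyal2 did not pass at either time. Tmem2 had the highest log2 fold change of the list at 8 h and did not pass (0.87 ± 0.30, edgeR adjusted p = 0.0750). Its level was 10.1 ± 1.72 CPM after CGRP against 5.50 ± 1.17 CPM after PBS.

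Hyaluronan-binding proteins and receptors moved in both directions. Of 11 tested, 3 were called higher at 4 h (Tnfaip6 and Vcan, already known, and Ptx3) and 1 lower, and 4 rose and 1 fell at 8 h. Tnfaip6, which transfers heavy chains of inter-alpha-trypsin inhibitor onto hyaluronan, had 121 ± 67.0 CPM in CGRP 4 h against 48.8 ± 7.69 CPM in PBS 4 h (1.31 ± 0.27). CGRP 4 h replicates 1 to 4 had 77.1, 106, 82.2 and 220 CPM of it. Without replicate 4 its log2 fold change was 0.86, and it did not pass the threshold in a fit of the 4 h libraries alone. Ptx3, a pentraxin of the hyaluronan-rich matrix, had 12.2 ± 2.84 CPM in CGRP 4 h against 3.05 ± 2.81 CPM in PBS 4 h (2.00 ± 0.49, edgeR adjusted p = 0.00776). PBS 4 h replicate 3 had 7.10 CPM of Ptx3 and the other PBS 4 h libraries 0.832 to 2.71 CPM; without it the log2 fold change was 2.83, and over the alternatives the adjusted p reached 0.0479. Itih5, a gene of the heavy chain family itself, fell at 4 h (-0.42 ± 0.09, adjusted p = 0.00251) and at 8 h (988 ± 42.8 CPM after CGRP against 1431 ± 145 CPM after PBS, -0.54 ± 0.09, adjusted p = 9.03e-04). Vcan, the proteoglycan versican, was higher at 4 h (0.58 ± 0.15) and rose at 8 h (491 ± 58.4 CPM after CGRP against 270 ± 61.0 CPM after PBS, 0.86 ± 0.15, adjusted p = 0.00162).

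Hmmr, an intracellular hyaluronan-binding protein that marks dividing cells, had 50 counts over the CGRP 8 h libraries and 1 over the PBS 8 h libraries, a ratio of 40.7 with a 95% counting interval of 6.97 to 1638 (edgeR adjusted p = 0.0182). It had 57 counts in CGRP 4 h and 91 in PBS 4 h libraries, so the PBS 8 h group had the lowest sum. Counts were uneven within groups, with 0, 8, 32 and 17 in CGRP 4 h replicates 1 to 4. The counting interval does not cover that spread between libraries. Without PBS 8 h replicate 1 the PBS 8 h libraries were all at 0. The 8 h call was lost without PBS 8 h replicate 3 or 4 (highest adjusted p 0.0957). The receptors Layn (0.66 ± 0.17, adjusted p = 0.0191) and Cd44 (1.00 ± 0.25, adjusted p = 0.0273) also rose at 8 h and were called in 18 and 15 of 23 alternatives. Both calls were lost without CGRP 8 h replicate 1 or 4 or PBS 8 h replicate 1 or 4. They were also lost without the 4 libraries with over 23000 genes detected. That of Cd44 was lost, too, without PBS 8 h replicate 3, with no filter on low counts and with the replicate number as a block. The highest edgeR adjusted p was 0.184 for Layn and 0.217 for Cd44.

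UDP-glucuronic acid also feeds the sulfated chains of proteoglycans. Of 20 genes that build the linker and chains, 4 rose at 4 h and 1 rose at 8 h, beside 7.84% and 5.00% of all genes. The 8 h count is thus at the share of all genes. The list's median log2 fold change was 0.07 at 4 h and 0.03 at 8 h, beside -0.00 and -0.02 over all genes. Csgalnact1, which starts chondroitin chains, had 193 ± 17.9 CPM in CGRP 4 h against 74.2 ± 15.1 CPM in PBS 4 h (1.38 ± 0.19, edgeR adjusted p = 1.51e-04), and 108 ± 28.5 CPM in CGRP 8 h against 46.2 ± 10.6 CPM in PBS 8 h (1.22 ± 0.19, adjusted p = 0.00128). B3galt6, which adds a galactose of the linker, rose at 4 h (0.98 ± 0.21, adjusted p = 0.00371), as did the chondroitin polymerising factor Chpf (0.74 ± 0.16, adjusted p = 0.00523) and the epimerase Dse, which makes dermatan sulfate (0.45 ± 0.11, adjusted p = 0.00578). All 5 of these calls were made in each of the 23 alternative analyses.

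**Figure D4:**
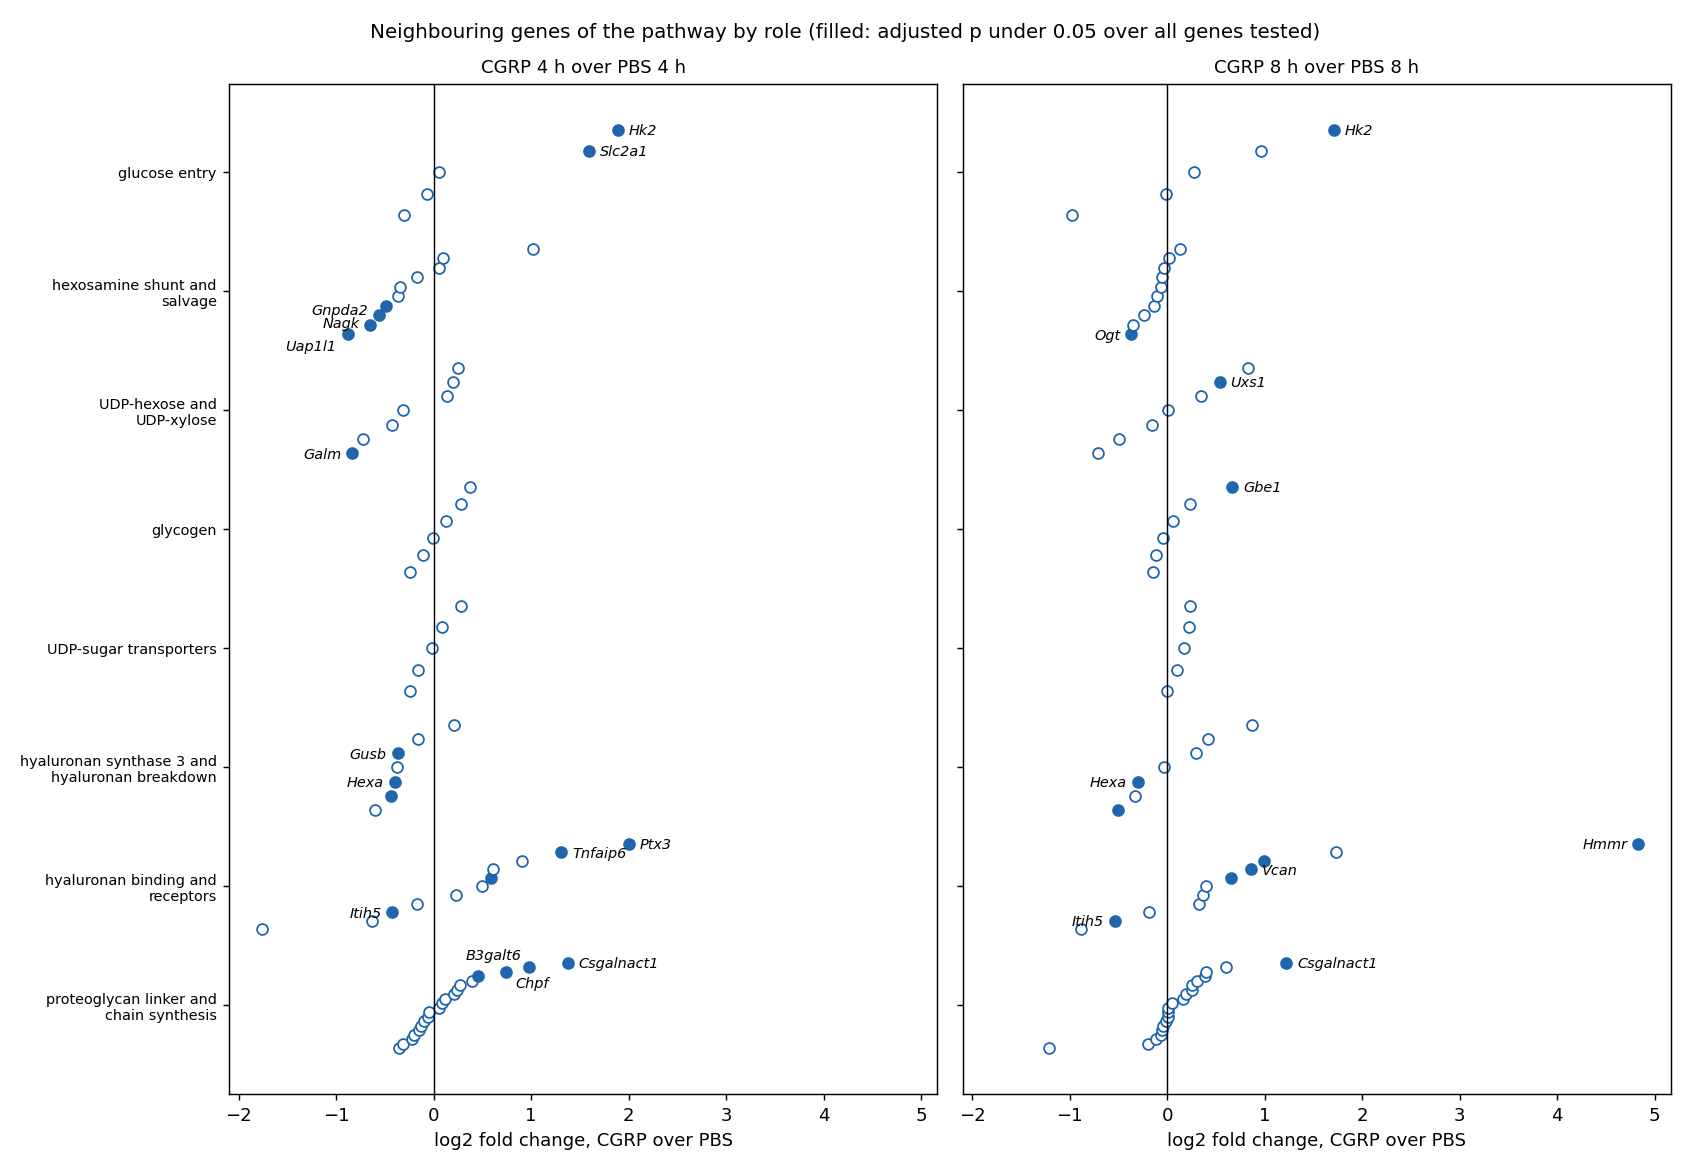
Log2 fold change of CGRP over PBS (x axis) at 4 h (left) and 8 h (right) for the 71 tested pathway genes, 1 row per list and 1 point per gene; filled points passed at an adjusted p under 0.05 over all genes tested, and some of these are named. At 4 h the filled points of the hexosamine salvage and hyaluronan breakdown lists are all left of 0 and those of glucose entry and of linker and chain synthesis all right of it.

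The 5 genes whose levels followed Ugdh most closely over the 16 libraries were found by the root mean square difference between each gene's log2 CPM, taken from its own mean, and that of Ugdh. They were Thbd (thrombomodulin, difference 0.23), Mt1 (a metallothionein, 0.30), Uap1 (0.33), Rgcc (a cell cycle regulator, 0.35) and Pmvk (phosphomevalonate kinase, 0.37), where Ugdh itself departed from its mean by 1.06. Thbd had 1089 ± 117 CPM in CGRP 4 h, 251 ± 39.6 CPM in PBS 4 h, 382 ± 28.1 CPM in CGRP 8 h and 191 ± 12.1 CPM in PBS 8 h libraries. Uap1 was thus at rank 3 of all tested genes by this measure, and among the other enzymes Gfpt2 ranked 31, Pgm3 232, Has2 253, the row named Pgm1 322, Ugp2 859, Has1 1059, Gfpt1 4436 and Pgm2 11265. All of these share the same 16 libraries, and the measure favours genes with a large difference at 4 h.

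**Figure D5:**
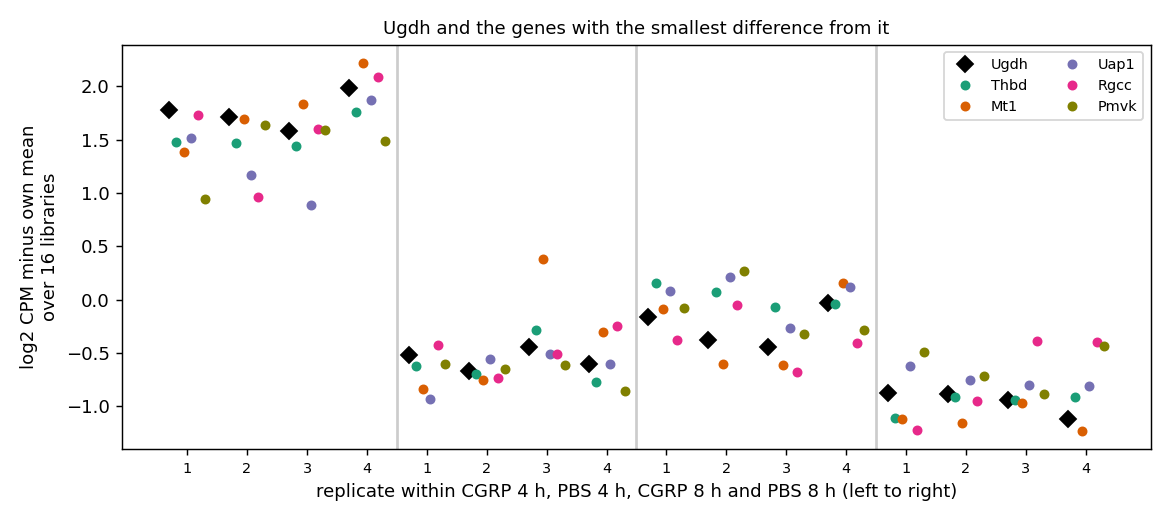
Log2 CPM of Ugdh (diamonds) and of Thbd, Mt1, Uap1, Rgcc and Pmvk (circles), each minus its own mean over the 16 libraries (y axis), by group and replicate (x axis). All 6 genes are highest in the 4 CGRP 4 h libraries, and the circles lie 0.23 to 0.37 from the diamonds by root mean square.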

How the data were processed

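The authors deposited read counts, not normalized, for each gene symbol in 16 columns, 1 per library. The submitters' processing notes name STAR 2.5.4, the mm10 build and featureCounts (without a version). Per the labels' protocols, cDNA was primed with oligo(dT), amplified by PCR and read as short pairs, without molecular identifiers or a strand mark, so counting intervals cover counting error only. The sources used here state neither the annotation, nor the strand setting, nor how multimapping reads were counted. No libraries within a group were copies: over 24 pairs, the chi-square of counts was 6.52 to 22.7 times its degrees of freedom.

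The model was edgeR 4.0.16 (R 4.3.3) with filterByExpr (13949 of 52997 symbols), TMM scaling and a robust quasi-likelihood fit of all 16 libraries with 1 mean per group and 12 residual degrees of freedom. The common biological coefficient of variation was 17.4%. Tests were two-sided with Benjamini-Hochberg adjustment over all genes tested, called at an adjusted p under 0.05. The words rose and fell are kept for these calls. The model was tested on simulated data first. Intervals of log2 fold changes use the SE of the fit and 12 degrees of freedom. DESeq2 1.42.0 was an alternative.

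The 10 members, the pathway lists and the marker lists were chosen with earlier results of these data known. The text names all 10 members, up to 3 called genes with the smallest p per pathway list at 4 h and at 8 h, and the 5 genes most like Ugdh, leaving out gene models without a name. 1 gene that this rule takes is not reported here. Amdhd2, Gnpnat1, Dse, Layn, Cd44, Galk1, Prg4, Fmod, Tnmd, Scx, Clic5, Has3, Hyal1, Hyal2, Tmem2, Slc2a1 at 8 h, Vcan at 4 h and single cell type markers were named after their values were seen. Promoter sequences are RefSeq's. Exon lengths are those of GENCODE M21.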

Additional observations from a re-analysis of the deposited data

Results flagged for a closer look

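In 3 of 124 groups of 4 libraries (31 genes), the highest library stood apart from the other 3 by a gap beyond Dixon's 95% critical value; chance flags about 1 in 20 groups. Hk2 had 66.9 CPM in CGRP 4 h replicate 4, where the other CGRP 4 h libraries had 26.2 to 32.3 CPM. Gbe1 had 47.9 CPM in CGRP 8 h replicate 1, where the others of that group had 41.4 to 42.3 CPM. Hmmr had 0.127 CPM, which is 1 count, in PBS 8 h replicate 1 and 0 in the other PBS 8 h libraries.

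The effect of CGRP at 8 h differed from that at 4 h, by a test of the difference in the edgeR model, for Uap1l1 (0.90 on the log2 scale, adjusted p = 0.00564) and Galk1 (0.67, adjusted p = 0.0398). Uap1l1 was called in 21 of 22 alternative analyses, but not without the 4 libraries with over 23000 genes detected. Galk1 was called in 7 of 22 and was named after its value was seen. The same threshold was passed by Ugdh (-1.62), Gfpt2 (-1.45), Uap1 (-1.26) and Pgm2 (0.61), for which it is a description, since the 10 enzyme genes were chosen as a set with the 4 h values of Ugdh and Has1 known.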

How the results depend on the processing

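At 8 h 4 of the 10 enzyme genes were called, and 2 to 4 when 1 library was left out (2 without the 4 libraries that had over 23000 genes detected, a choice made after seeing the data, which are PBS 4 h replicate 4, PBS 8 h replicates 1 and 4 and CGRP 4 h replicate 3). Between the PBS times the count was 0, but 1, Ugdh, with no filter on low counts, with DESeq2 or in a fit of those 2 groups alone, and 0 to 1 with a library left out. At 4 h the count of 8 ranged from 6 to 9 with a library left out. Of the pathway genes, 18 were called at 4 h (16 to 19 with a library left out) and 12 at 8 h (7 to 16, and 4 without those 4 libraries). For the difference between times 2 were called (1 to 2 with a library left out, 4 with no filter, 0 without the 4 libraries).

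Over all genes, 2262 were called at 4 h (1481 to 2245 with a library left out) and 1210 at 8 h (577 to 1297, and 191 without the 4 libraries). Between the PBS times the count was 72 (17 to 280 with a library left out, 422 with no filter, 308 with DESeq2, 131 in the 2 groups alone), and between the CGRP times 1012 (666 to 1014). For the difference it was 156 (80 to 196, 456 with no filter, 428 with DESeq2, 63 without the 4 libraries). The causes were not tested; fewer libraries also leave fewer degrees of freedom.

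The sign turned only for values near 0. Gfpt2 at 8 h (-0.02) was 0.17, 0.01 or 0.07 without CGRP 8 h replicate 3, CGRP 8 h replicate 4 or PBS 8 h replicate 1, and 0.12 without the 4 libraries (-0.15 to 0.17 with a library left out). Between the PBS times Gfpt1 (0.08) became -0.0070 without PBS 8 h replicate 2 (-0.0070 to 0.16 with a library left out), Gfpt2 (0.07) became -0.0058 without PBS 8 h replicate 1 (-0.0058 to 0.14), and Has1 (-0.16) became 0.38 and 0.12 without PBS 4 h replicate 3 and PBS 8 h replicate 4 (-0.42 to 0.38), and 0.047 without the 4 libraries. No other scaling moved the all-gene median past 0.1.

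The labels do not state whether replicate numbers pair the libraries. Same-numbered libraries of CGRP and PBS at each time, and of the PBS groups, correlated in their deviations from the group means by -0.06 to 0.06. The CGRP groups were not compared with each other. Values this small cannot decide whether same-numbered libraries share a day or a batch. In the PBS comparison every library correlated best with its own number, a hint from the data and not from the design. With the replicate number as a block, 7 of the 10 genes were called at 4 h, 4 at 8 h and 0 between the PBS times, and 18, 11 and 1 pathway genes at 4 h, at 8 h and for the difference. The shares of all genes called with the block are not given here. These counts therefore show only how the calls moved from the main fit. The block ended the 4 h call of Has1 (log2 fold change 2.35) and Amdhd2, the 8 h call of Cd44 and the difference of Galk1.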
